A study of Linum usitatissimum with 4 samples.

Results

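Lus10007390 (Lus10007390.g in the tables) is a flax (Linum usitatissimum) gene on chromosome Lu3 that the deposited tables describe as related to bifunctional nuclease 1. Its entry here is made of 22 listings of differential methylation, out of 1894 in the series, that cover 14 cytosines between 3336 and 2506 bp upstream of its start. Of the 22 listings, 20 carry the gene's identifier. The other 2 come from the CG table of 5-azacytidine plus heat, whose gene columns are not usable, and were taken because they lie on Lu3 between the first and last position of the gene. The gene was chosen for the number and direction of these listings, so the values below describe it and were not tested.

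Bifunctional nucleases of plants cut both DNA and RNA. In Arabidopsis and wild rice, members of the family are known for a part in basal defence against pathogens. For the flax gene, the family description of the deposited tables was used here. In plants, cytosines are methylated in the CG, CHG and CHH contexts, where H stands for A, C or T. CG methylation is copied at replication by a maintenance methyltransferase. CHG methylation is kept mainly by a chromomethylase, and CHH methylation by a chromomethylase and by small RNAs that guide a methyltransferase to its targets.

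The libraries came from shoot apices of cultivar JRF-2, with tissue of 10 seedlings pooled for each of the 4 groups and 1 library per group. Control seedlings were kept at 22 ± 2 °C. Heated seedlings had 40 ± 2 °C for 4 h on each of 5 days from an age of 21 days, after which they recovered at the growth temperature. The third group grew from seeds soaked for 24 h at 20 °C in 1 mM 5-azacytidine, an analogue of cytidine that traps DNA methyltransferases. The fourth combined this soak with the heat. With 1 library per group there is no replicate error, and the read depth behind each value is unknown. All 3 comparisons use the same control library.

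Differences are the authors' values, read as percentage points of methylation. Their sign was read as treated minus control, so that "higher" means more methylation in the treated library. The files do not state this convention, and every direction would swap if it were the other one. The authors' lists hold sites with a q-value up to 0.0499 and an absolute difference from 5.01 points, and a cytosine that is not listed in a comparison is not shown to be unchanged there. Positions are deposited starts on a genome build not given in the sources used here, and may be off by 1 bp.

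The 14 cytosines were not spread evenly over the 830 bp. Of these, 12 lay in a run of 261 bp, from 3336 to 3075 bp upstream (Lu3, 21109154 to 21109415), in which no neighbours were more than 56 bp apart. The remaining pair lay 2630 and 2506 bp upstream, behind a gap of 445 bp, and both were CHH sites listed only for 5-azacytidine plus heat. By context there were 3 CG, 1 CHG and 10 CHH cytosines. The opposite-strand partner of a listed CG or CHG was listed in 0 cases, which does not show that the partner was unchanged.

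By direction, 4 of the 14 cytosines were higher than in the control library, 10 were lower, and 0 were higher in one comparison and lower in another. The 4 higher ones were a pair of CG sites 3225 and 3219 bp upstream, a CHH site at 3178 bp and the CHG site at 3115 bp. They lay inside the run of 12, with lower sites on both sides of them.

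**Figure D1:**
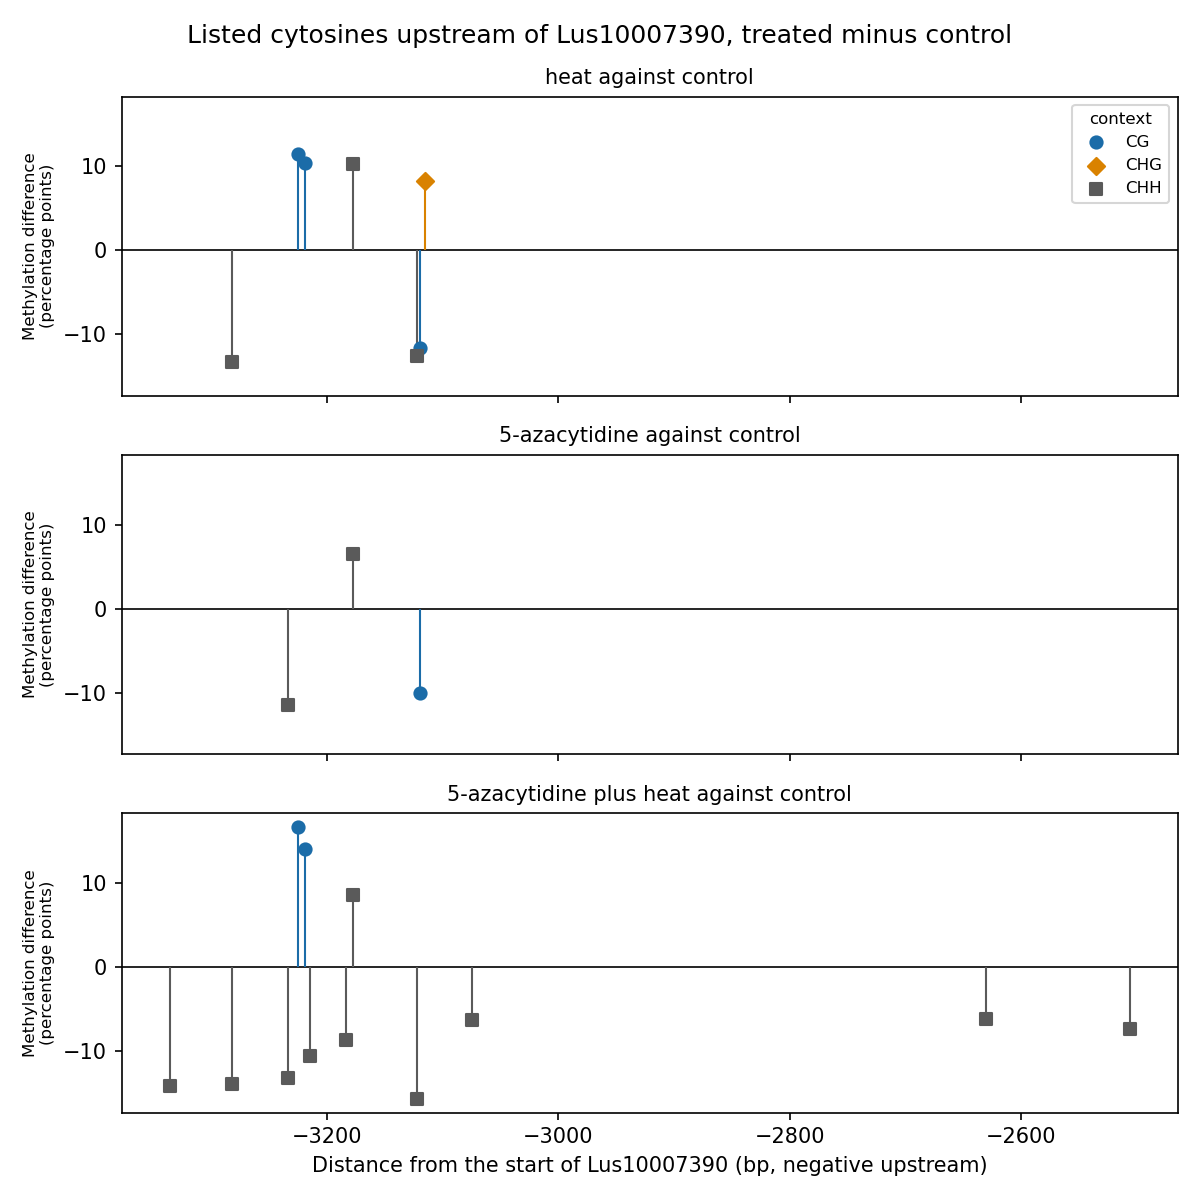
Methylation difference in percentage points, treated minus control, against distance from the gene start in bp, for heat (top), 5-azacytidine (middle) and 5-azacytidine plus heat (bottom), with 1 point per listed cytosine and colour and shape for the context. The 4 higher cytosines, 3225 to 3115 bp upstream, stand among lower ones, and the pair at 2630 and 2506 bp appears in the bottom panel.

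The heat comparison asks where 5 days of heat left methylation different from the control. At Lus10007390, 7 cytosines were listed, 4 higher and 3 lower. Over all 184 listings for heat, 21.2% were higher. That share is background, and nothing is read from it because the gene was chosen on these values.

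In the CG context 2 of 3 sites were higher with heat, where 39.6% of the 48 listed CG sites in the series were. The site 3225 bp upstream (21109265) had 11.5 points more methylation in the authors' deposited table (q = 0.000129), and its neighbour 6 bp on (21109271) had 10.4 points more (q = 0.0114). The third CG site, 3120 bp upstream (21109370), had -11.6 points in the authors' deposited table (q = 0.00262). Sites of the same context 99 bp apart in the same library pair thus differed from control in opposite directions.

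The CHG site of the gene, 3115 bp upstream (21109375), had 8.30 points more methylation with heat in the authors' deposited table (q = 0.0168). It was the smallest of the 7 CHG rises for heat, and 53.8% of the 13 listed CHG sites were higher. This cytosine lies 5 bp from the CG site that was lower. The CHG tables of the other comparisons list 0 sites for the gene.

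Of the 3 CHH sites listed with heat, 1 was higher, where 10.6% of the 123 listed CHH sites in the series were. That site, 3178 bp upstream (21109312), had 10.3 points in the authors' deposited table (q = 3.67e-05), the 8th smallest q-value of the 123. The lower CHH sites, 3282 bp (21109208) and 3122 bp (21109368) upstream, had -13.3 points (q = 0.00789) and -12.6 points (q = 0.00355) in the authors' deposited table. With heat the order along the stretch was therefore lower, higher at 3 sites, lower at 2 sites, and higher.

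Seedlings from soaked seeds were compared with control to ask whether methylation still differed in the shoot apex weeks after the inhibitor was given. It listed 3 cytosines of the gene, 1 higher and 2 lower, and 9.19% of its 566 listings in the series were higher. The higher site was the CHH cytosine 3178 bp upstream, with 6.56 points in the authors' deposited table and a q-value of 0.0493, close to the limit. It was the smallest of the 30 CHH rises of that comparison. Over the series 6.59% of 455 CHH sites were higher.

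The lower sites of that comparison were a CHH cytosine 3234 bp upstream (21109256), with -11.4 points (q = 0.00406), and the CG cytosine 3120 bp upstream, with -10.04 points (q = 0.0384), in the authors' deposited tables. Of the 64 CG sites listed in the series 20.3% were higher. The CG pair that was higher with heat is not listed for 5-azacytidine.

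The combination of inhibitor and heat was compared with the control, not with either treatment alone. It listed 12 cytosines of Lus10007390, 3 higher and 9 lower, while 4.72% of its 1144 listings in the series were higher. Both CG sites that it listed in the stretch were higher, where 21.8% of 101 listed CG sites were. The site 3225 bp upstream had 16.7 points in the authors' deposited table with the smallest q-value of the gene (5.80e-11), the 5th smallest of that table. Its neighbour 3219 bp upstream had 14.0 points in the authors' deposited table (q = 4.11e-06).

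Among 10 CHH sites of the combined comparison 1 was higher, where 2.36% of 1018 were. This was again the cytosine 3178 bp upstream, with 8.63 points in the authors' deposited table (q = 0.00124). The 9 lower CHH sites ranged from -15.7 to -6.19 points in the authors' deposited table. The gene's 10 CHH sites had a median of -9.63 points, against -9.24 points over all CHH listings of the authors' deposited table.

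The lower CHH sites of the combined treatment differed in size along the stretch. The site with -15.7 points in the authors' deposited table was the one 3122 bp upstream (q = 2.19e-06), the 9th smallest q-value of 1018. At the distal end of the run, the sites 3336 (21109154), 3282 and 3234 bp upstream had -14.2, -13.9 and -13.2 points (q = 0.00390, 0.00231 and 0.000641) in the authors' deposited table. Sites 3215 (21109275) and 3184 bp (21109306) upstream had -10.6 points (q = 0.0367) and -8.68 points (q = 0.00329) in the authors' deposited table. Nearest the gene the differences were smaller, with -6.28, -6.19 and -7.32 points at 3075, 2630 and 2506 bp upstream (q = 0.0308, 0.0448 and 0.0115) in the authors' deposited table. The sites 3122 and 2506 bp upstream break the order, so the sizes do not decline steadily towards the gene.

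Of the 14 cytosines, 7 were listed in 2 or more comparisons. As the comparisons share the control library, a like sign is no separate evidence, and the values are given side by side. The CHH cytosine 3178 bp upstream was listed in all 3, with 10.3, 6.56 and 8.63 points for heat, 5-azacytidine and the combination in the authors' deposited tables. Heat and the combination shared the CG pair, with 11.5 and 16.7 points at 3225 bp and 10.4 and 14.0 points at 3219 bp in the authors' deposited tables. They also shared the CHH sites 3282 bp (-13.3 and -13.9 points) and 3122 bp upstream (-12.6 and -15.7 points) in the authors' deposited tables.

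For 5-azacytidine and the combination, the shared lower site was the CHH cytosine 3234 bp upstream (-11.4 and -13.2 points in the authors' deposited tables). The CG cytosine 3120 bp upstream was lower with heat and with 5-azacytidine (-11.6 and -10.04 points in the authors' deposited tables) and is not listed for the combination. Whether a cytosine differed more in one treatment than in another was not tested, since the tables used here give neither counts nor levels per library.

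**Figure D2:**
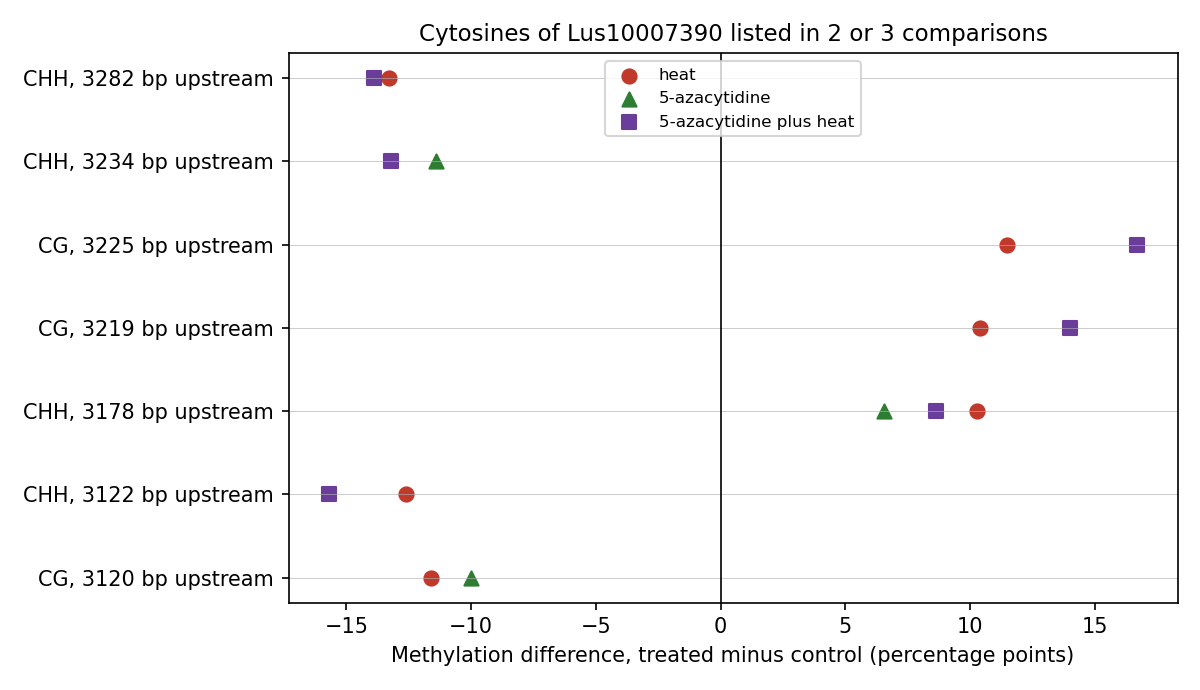
Methylation difference in percentage points (x axis), treated minus control, of the 7 cytosines listed in 2 or 3 comparisons (y axis, by context and distance upstream), with a symbol per comparison. Each cytosine keeps to 1 side of 0, and the CG pair has 16.7 and 14.0 points in the combination against 11.5 and 10.4 points with heat.

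Sites of opposite direction lay very close together. In the combined comparison the CG pair, which was higher, had lower CHH sites 9 bp before and 4 bp after it, and the higher CHH site at 3178 bp followed a lower one by 6 bp. With heat, the lower CG site at 3120 bp and the higher CHG site at 3115 bp were 5 bp apart. Counting neighbouring listings of a comparison at most 10 bp apart, 4 of 7 pairs in the gene were of opposite direction (57.1%), against 26 of 157 pairs in the rest of the series (16.6%). By comparison these were 1 of 3 pairs for heat and 3 of 4 for the combination. In the combination, all pairs but the opposite one at 3184 and 3178 bp upstream involve the CG rows taken by position. Most opposite pairs of the gene joined different contexts, and the rest of the series was not matched by context. The 10 bp distance was chosen after the positions were seen, the gene was picked for its mixed directions, and the pairs of 1 comparison share their libraries, so this is a description.

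No difference at Lus10007390 came near the largest of the series, though its median size was close to that of the series. Absolute differences in the authors' deposited tables ran from 6.19 to 16.7 points with a median of 11.01, where the series ran from 5.01 to 94.1 with a median of 10.03. Their q-values were mostly well inside the limit, with 14 of 22 listings (63.6%) below 0.01, against 612 of 1894 (32.3%). The series was not matched to the gene by context or comparison, and the 22 listings cover only 14 cytosines. Since depth per site is unknown, these q-values cannot be weighed against read numbers.

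**Figure D3:**
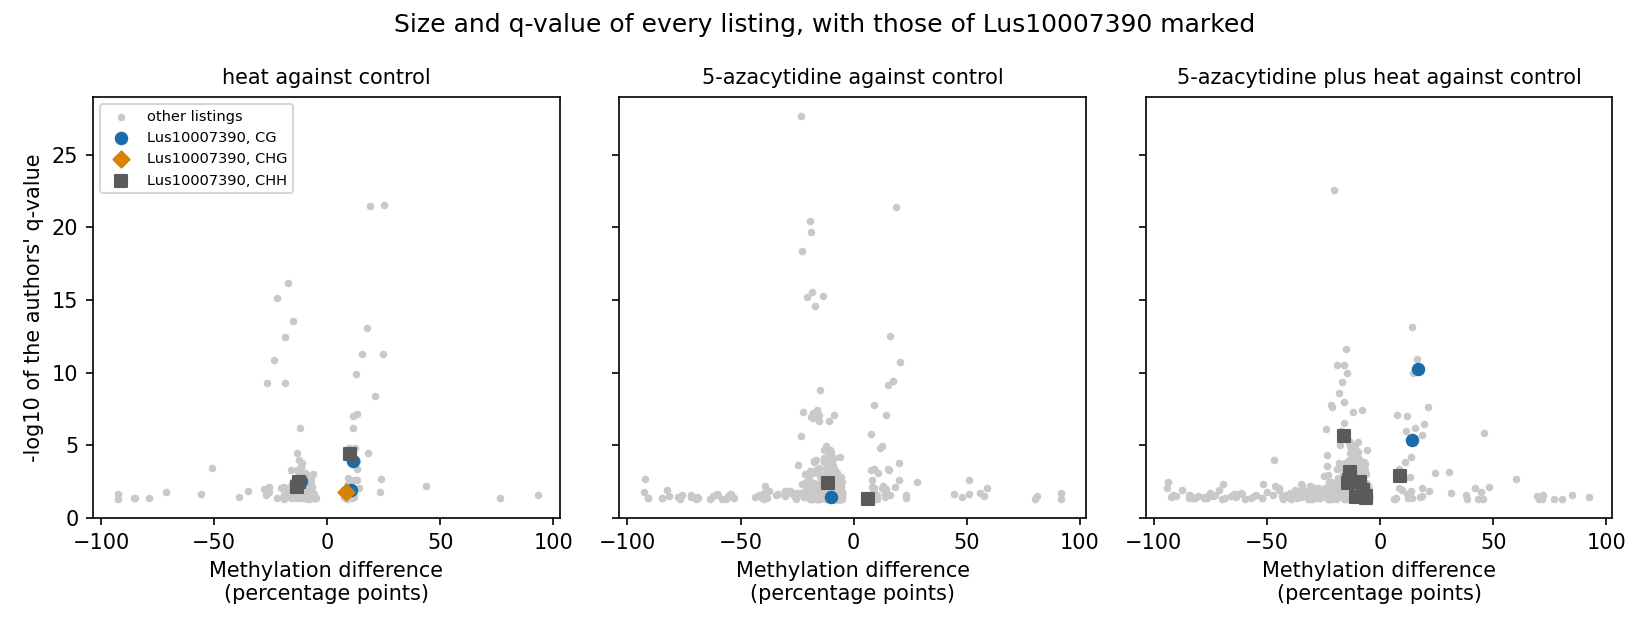
Methylation difference in percentage points (x axis) against -log10 of the authors' q-value (y axis) for every listing of each comparison, in grey, with the listings of Lus10007390 coloured by context. The gene's points lie within 16.7 points of 0, while other listings reach beyond 90 points.

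With 20 identified listings, the number it was partly chosen for, the gene follows 16 of the 389 genes with an identifier and ties with 2. Among the 102 genes with 5 or more listings, it is one of 50 with sites in all 3 comparisons and of 39 with both directions. Lu3 holds 236 listings. The nearest listings beyond the stretch lie 40538 bp before it, upstream of Lus10012651 (-8.68 points, CHH), and 39134 bp after it, upstream of Lus10007392 (-82.3 points, CHH), both for 5-azacytidine in the authors' deposited table.

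Genes with the most similar pattern were ranked by the cosine between their numbers of higher and lower listings in the 8 tables with usable gene columns. This likeness, over 16 numbers, was highest for Lus10008763 (0.948), described as a mitochondrial polyribonucleotide nucleotidyltransferase, an enzyme class that degrades RNA from its end. Next came Lus10015447 (0.944), related to the low-temperature viability protein LTV1, and Lus10005727 (0.944), without a family description. A 4th gene, Lus10010175, related to the RNA helicase SDE3, also rounds to 0.944. The likeness rests on lower CHH sites of the combined treatment, of which the first 3 genes had 6, 7 and 6 and Lus10007390 had 9. These 3 genes had 0 CG or CHG listings in the 8 tables, and of their 9, 10 and 8 listings, 1, 0 and 0 were higher, against 6 of 20 for Lus10007390. Genes just below them were mixed. Lus10010175 had 1 CG listing, lower with heat, and Lus10004896 (0.942), described as an ABC transporter, had 0 CG or CHG listings. Lus10009768 (0.942), a DUF4370-domain gene, had 1 higher and 1 lower CG listing with heat and the same with 5-azacytidine. These last genes were named after their values were seen.

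The naming of the stretch has limits of its own. The 20 identified listings imply a single gene start at 21112490, while the 2 CG rows of the combined comparison carry another kind of identifier and distances of -2986 and -2980 bp, which imply a start 239 bp closer. Strand entries of the 20 listings are split, 10 plus and 10 minus, and what they refer to was not established. The word upstream therefore rests on the sign of the deposited distances. In 6 of the 10 CHH rows of the combined comparison the free-text hit names other proteins beside the same gene identifier. At 3184, 3178 and 3122 bp upstream the hit is a tRNA methyltransferase protein, and the others are hypothetical or uncharacterized proteins. A site is assigned to the gene with the nearest start, and whether the stretch acts on Lus10007390 was not measured.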

How the data were processed

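Whole-genome bisulfite libraries were sequenced as paired reads of 150 bp, per the labels. Trimmomatic, FastQC, BWA, MethylDackel and methylKit were used, per the submitters' processing notes, without versions or roles. The authors deposited 9 tables, for 3 treatments against control in 3 contexts. Per the file headers, each row gives a p-value and q-value, a methylation difference (a signed score in percentage points) and a distance to a gene start. The distances, another deposited value, were used as given. No table gives read coverage, so the depth is unknown and no interval is given.

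Listings were selected by gene identifier, and by position in the CG table of 5-azacytidine plus heat. There, 3 rows carry the identifier of Lus10007390 on Lu14, and these were left out. Runs join cytosines at most 100 bp apart. Counts, medians, ranks and cosines were computed with Python 3.11.15, and the steps that find runs, pairs and cosines were checked on simulated data. Figures used matplotlib 3.10.9.

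The gene and the rules were chosen with earlier results of these data known. The rule for sites names the extremes and smallest q-value per table, every cytosine in 2 or more comparisons, the first and last site and each run of 5 or more. It names 3 genes of like pattern and the next listed genes on Lu3. No test was run, since each group is 1 library. Alternatives were stricter q-values (0.01 and 0.001), differences of at least 10 points, joined strands, selection by position, sites within 5000 bp, the CG rows left out, and other gaps.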

Additional observations from a re-analysis of the deposited data

How the results depend on the processing

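No paired analysis was possible because each group has 1 library and no test was run. Of 41 alternative counts 28 stayed within 1.5 times the reported one. With q-values below 0.01, higher and lower listings were 2 and 3 for heat, 0 and 1 for 5-azacytidine, and 3 and 5 for the combination. Below 0.001 they were 2 and 0, 0 and 0, and 2 and 2, so lower sites no longer outnumbered higher ones in the combination, and for heat 0 lower sites were left. With differences of at least 10 points the higher CHH site was no longer counted for 5-azacytidine (0 higher) or for the combination, which kept 2 higher and 5 lower. Leaving out the CG rows taken by position left 1 higher site in the combination. Runs numbered 3 at a gap of 100 bp, 5 at 50 bp and 2 at 200 bp. Selecting by position in all 9 tables gave the reported counts. Joining strands and the 5000 bp limit could not change them, as 0 strand partners were listed and the farthest site lay 3336 bp upstream. The 28 include these settings, so that number is no measure of robustness. Stricter limits remove sites by construction. The depth behind each listing is unknown.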

Other observations

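The 3 rows that carry the identifier of Lus10007390 in the CG table of 5-azacytidine plus heat lie on Lu14, at 8137561, 8137593 and 8137603. Their distances of -3225, -3219 and -3120 bp are those of the 3 CG sites of the gene in the heat table. The authors' deposited table gives them -11.7, -12.0 and -15.9 points, which are not values of the Lu3 stretch.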
